A study of Mus musculus with 49 samples.

Results

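The genes described here belong to solute carrier families that mostly move amino acids at the plasma membrane or various substrates at the inner mitochondrial membrane. They are all genes with a probe whose current mouse symbol belongs to the solute carrier families Slc1, Slc3, Slc6, Slc7, Slc36, Slc38, Slc43 or Slc25. The rule found 101 probes for 87 genes, among 13852 genes named by the array's probes. The brightest probe stood for each of the 11 genes with several probes. The plasma membrane families held 47 genes, of which Slc6 with 14, Slc7 and Slc38 with 10 each and Slc1 with 7 were the largest, and Slc25 held 40. Plasma membrane and mitochondrial are used below as names of families, not of a place or substrate shown for each member. Slc6a3 carries dopamine, Slc6a8 creatine and Slc43a3 purine bases, while Slc36a1 and Slc38a7 are lysosomal and Slc6a17 loads synaptic vesicles. The symbol rule also took in Slc7a6os, a gene on the opposite strand of Slc7a6 that encodes no transporter. Values were present on every array of a set for 85 genes in the set of ESC B6, 76 in that of OKM+EV, 74 in that of the SOX2 substitutes, 62 in that of the SKM groups and 77 in that of the other lines and MEF, and for 53 in all 5 sets, and each count below is of genes measured in its set. Another 24 mouse genes with such symbols had no named probe and were not analysed here.

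Expression was measured on 49 one-colour arrays in 23 groups of mouse cells, in a study of factors that replace OCT4 or SOX2 in reprogramming. The pluripotent cells were 3 lines of induced pluripotent stem cells (iPSC), named G6Gm, G3 and Dlx3RNAi and labelled, like the fibroblasts, as from skin of female OGXICR mice at D13.5, the embryonic stem cell (ESC) line R1 of 129 background and the ESC line B6 of C57BL/6 background. Lines grew on mitomycin-C-treated fibroblast feeders in a medium with N2 and B27, nonessential amino acids, L-glutamine and the inhibitors PD0325901 and CHIR99021. The other groups were embryonic fibroblasts (MEF) from limb and tail skin of female OGXICR mice, taken at D13.5 of gestation and kept in DMEM with serum, and either left uninfected or infected with doxycycline-inducible lentiviruses. Between lines and MEF, the state of the cells, the medium with its nonessential amino acids, the feeders and the strain cannot be told apart. SKM means SOX2, KLF4 and MYC, OKM means OCT4, KLF4 and MYC, and EV is an empty vector. SKM was given with OCT4, with GATA6, SOX7, PAX1, GATA4, CEBPa, HNF4a, GRB2 or MIXL1 as an OCT4 substitute, or with EV, and MEF1 EV was infected with EV alone. OKM was given with SOX1, SOX3 or GMNN in the place of SOX2, with SOX2 itself, or with EV, and MEF2 EV was the matching fibroblast control. ESC B6, GATA4+SKM and OKM+EV had 3 arrays each and the other 20 groups had 2. No source used here says whether arrays of one group came from different cultures, so p-values measure the spread between arrays only, which may be technical.

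Amino acid carriers differ in what they move and in what drives them. System L exchangers such as Slc7a5 need the heavy chain Slc3a2, the cationic carriers Slc7a1 and Slc7a3 bring in arginine and lysine, and the Slc38 carriers pull in glutamine and alanine with sodium. Slc25 carriers link the cytosol with the mitochondrial matrix, moving adenine nucleotides, phosphate, citrate, malate, aspartate, ornithine, iron and acylcarnitines. When amino acids run short, ATF4 turns on several of the plasma membrane carriers, and mouse ESC are known for a strong dependence on threonine and glutamine metabolism.

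Promoter windows give sequence context, and the stretches printed are of carriers with a motif match. Slc7a3, Slc7a5, Slc38a2, Slc1a5 and Slc6a9, described often below, had no match before the start or no window. They are the RefSeq windows of GRCm38.p6, from 250 bases before to 50 bases after each gene's start, and 65 of the 87 genes had one. Both strands were searched for TGATGNAA, the core letters of the element through which ATF4 and its partners bind, and for CACGTG, the E-box bound by MYC and its relatives. CACGTG reads the same on both strands, and a match to it can share its last letters with one to TGATGNAA. Before the start, TGATGNAA occurred in 1 of the 65 genes (1.54%) and in 3.91% of all 27025 genes with a window. CACGTG occurred before the start in 14 of the 65 genes (21.5%), 7 plasma membrane carriers and 7 of Slc25. Of all genes 6.86% had it before the start and 8.09% over the whole window. These are descriptions of the windows, and neither a bound site nor a cause follows from a match. The stretches are shown 5′ to 3′ on the strand of the gene with the motif in capitals, first the window of the cystine carrier Slc7a11 with both matches to TGATGNAA, then 5 carriers with an E-box.
Slc7a11 (chr3:50443623-50443709, minus strand): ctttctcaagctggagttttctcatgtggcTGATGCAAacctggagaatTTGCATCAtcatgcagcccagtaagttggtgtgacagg
Slc25a13 (chr6:6217263-6217328, minus strand): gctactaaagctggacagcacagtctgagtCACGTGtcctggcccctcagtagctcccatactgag
Slc25a1 (chr16:17928423-17928469, minus strand): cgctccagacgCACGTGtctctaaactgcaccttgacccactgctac
Slc25a33 (chr4:149774268-149774305, minus strand): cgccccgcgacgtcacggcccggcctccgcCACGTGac
Slc36a1 (chr11:55204279-55204339, plus strand): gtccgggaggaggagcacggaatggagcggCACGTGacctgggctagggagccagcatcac
Slc38a5 (chrX:8271321-8271380, plus strand): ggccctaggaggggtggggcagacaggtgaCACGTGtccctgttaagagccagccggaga

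All levels are linear intensities as deposited and all differences are log2 differences of intensity plus 32, so a fold change of a dim gene is understated. The arrays fall into 5 sets by which probes lack a value. The sets also differ in level and were taken as normalized apart, so groups were compared within a set only. A gene passed at an adjusted p-value under 0.05 in limma, two-sided, adjusted over all genes of the comparison, and each test below is of that kind. Calls of the carriers named by rule were repeated without single arrays, where an array left alone in its group was assumed to vary like the other groups, since the fit pools the spread. The pooled spread takes in the wider sets too, so for some carriers it was larger than in their own set. Except for array 3 of OKM+EV, these repeats were not made in a fit of the set alone, where a lost call may hold. Array 3 of OKM+EV stood apart, with correlations of 0.843 and 0.884 with the other 2 arrays of its group, which correlated at 0.986 with each other. The 2 OKM+SOX2 arrays correlated at 0.905, and every other pair within a group at 0.976 or more. CEBPa+SKM, HNF4a+SKM and GRB2+SKM had nearly the same profile, with group means that correlated at 0.993 to 0.994 over 10006 genes, against 0.885 to 0.946 between these 3 groups and the others of their set. This grouping was seen in the data, and its cause was not tested. Probes for the introduced factors do not check the infections: Pou5f1, the gene of OCT4, lay between 158 and 170 in OCT4+SKM and between 60.7 and 228.5 in the other groups of its set. Gata4 lay between 230 and 379 in GATA4+SKM, its lowest group mean, and between 379 and 1100 in the others. Gata6 had 1668 to 1948 in GATA6+SKM and 907 to 5837 elsewhere, and Grb2 2692 to 3072 in GRB2+SKM and 2316 to 4112 elsewhere. The other factors added to SKM had no probe or no value on every array. Thus no measured probe was highest in the group named for its factor, and the reason was not tested. No marker of another cell type was at 0 in any group. In such bulk samples, fewer cells of a type and less RNA per cell cannot be told apart.

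Carriers passed between the pluripotent lines and uninfected MEF about as often as genes in general. Of the 41 plasma membrane genes measured, 9 rose and 12 fell in the 4 lines G6Gm, G3, Dlx3RNAi and R1 (51.2%), and of the 36 Slc25 genes 7 rose and 15 fell (61.1%). Over all genes 57.8% passed, so the shares are near the background. The cationic carrier Slc7a3 and the large neutral carrier Slc7a8 were among those that rose, while the glycine carrier Slc6a9, the System A carrier Slc38a2 and the lysosomal carrier Slc36a1 were among those that fell. Line by line, G6Gm had 4 rises and 9 falls at the plasma membrane and 8 rises and 11 falls in Slc25 (40.2% of all genes called), and Dlx3RNAi 6 and 11, and 7 and 13 (48.3%). G3 had 7 rises and 14 falls at the plasma membrane and 8 and 12 in Slc25 (52.3%), and R1 9 and 14, and 8 and 15 (53.2%). The median difference was −0.01 for the plasma membrane genes, −0.14 for Slc25 and 0.03 for all genes.

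Slc7a3, a carrier of arginine and lysine, lay between 905 and 1845 on the 8 line arrays, with a median of 1439, and at 495 and 587 on the MEF arrays. Every line array was above both MEF arrays, and the difference was 1.28 ± 0.25 (SE; adjusted p = 7.15e-05). Its relative Slc7a1 did not pass, with 1078 to 2072 in the lines and 1382 and 1616 in MEF (−0.01). The System L light chain Slc7a5 did not pass either (0.13, adjusted p = 0.741), nor did its heavy chain Slc3a2 (0.08). Slc7a8, another light chain of System L, lay between 650 and 1570 in the lines, against 568 and 403 in MEF, and rose by 1.02. That call ended without MEF array 2 (adjusted p = 0.135). Slc7a11, which takes up cystine in exchange for glutamate, lay between 133 and 273 in the lines and at 336 and 344 in MEF, a difference of −0.73 that was lost without MEF array 1 (adjusted p = 0.0514) or array 2 (adjusted p = 0.0667).

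The sodium-coupled Slc38 carriers split. Slc38a4, which carries neutral and cationic amino acids, reached 610 to 1812 in the lines with a median of 1317, against 484 and 514 in MEF (1.14 ± 0.28, adjusted p = 0.00159). Slc38a2, the System A carrier that cells raise when amino acids are scarce, went the other way, with 1047 to 1980 in the lines and 4521 and 3838 in MEF (−1.59 ± 0.14). Slc38a1, a glutamine carrier of neurons and placenta, had 339 to 759 in the lines and 1412 and 1620 in MEF (−1.34 ± 0.11). For all 3 genes no line array reached into the MEF range.

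Slc6a9, Slc1a4, Slc36a1 and Slc43a3 were lower in the lines. The glycine transporter Slc6a9 lay between 128 and 197 in the lines, against 649 and 615 in MEF, and fell by 1.76 (adjusted p = 4.8e-09). Slc1a4, which exchanges alanine, serine and cysteine, had 778 to 1678 in the lines and 2246 and 2112 in MEF (−0.85). Its glutamine-carrying relative Slc1a5 lay at 460 to 1617 in the lines, with MEF at 1393 and 1438 inside that range, and did not pass (adjusted p = 0.0755). Slc36a1, which exports amino acids from lysosomes with protons, fell by 1.04, with 197 to 325 in the lines and 568 and 575 in MEF. Slc43a3, a carrier of purine bases and not of amino acids, fell by 1.19, with 133 to 483 in the lines and 678 and 767 in MEF.

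Among the mitochondrial carriers the largest fall was that of Slc25a28, mitoferrin 2, which brings iron into the matrix. It read 740 to 994 in the lines, with a median of 861, against 6009 and 5359 in MEF (−2.70 ± 0.11, adjusted p = 6.66e-19). Its relative Slc25a37, mitoferrin 1, had 517 to 921 in the lines and 991 and 827 in MEF and did not pass (−0.36). The citrate carrier Slc25a1, which feeds fatty acid and sterol synthesis, lay between 917 and 1550 in the lines, against 3360 and 3770 in MEF (−1.58). Slc25a10, the dicarboxylate carrier, fell by 1.60, to 82.8 to 180 in the lines, against 402 and 409 in MEF. Slc25a24, a calcium-regulated carrier of ATP-Mg and phosphate, fell by 1.30, and Slc25a44, a carrier of branched-chain amino acids, by 1.25. For each of these 5 falls all line arrays were below both MEF arrays.

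The rises in Slc25 included carriers of the malate-aspartate shuttle, the urea cycle and fatty acid oxidation. Slc25a13, the aspartate and glutamate carrier citrin, lay between 1623 and 2928 in the lines and at 939 and 856 in MEF (1.28 ± 0.21, adjusted p = 4.2e-06). Slc25a20, which brings acylcarnitines in for oxidation, had 1185 to 2948 in the lines and 934 and 849 in MEF (1.18). The ornithine carrier Slc25a15 rose by 1.06, with 795 to 1428 in the lines and 547 and 479 in MEF. The adenine nucleotide translocases Slc25a31 and Slc25a4 moved in opposite directions, and their relative Slc25a5 had no named probe. Slc25a31, the isoform of germ cells, lay between 293 and 694 in the lines and at 147 and 59.5 in MEF (1.98 ± 0.23), and Slc25a4, the isoform of heart and muscle, between 5770 and 8563 in the lines and at 10744 and 10074 in MEF (−0.52). No line array overlapped MEF for any of these genes. Of the mitochondrial carriers whose E-box stretch is printed above, Slc25a13 and Slc25a33 (0.64) were thus higher and Slc25a1 lower in the lines.

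**Figure D1:**
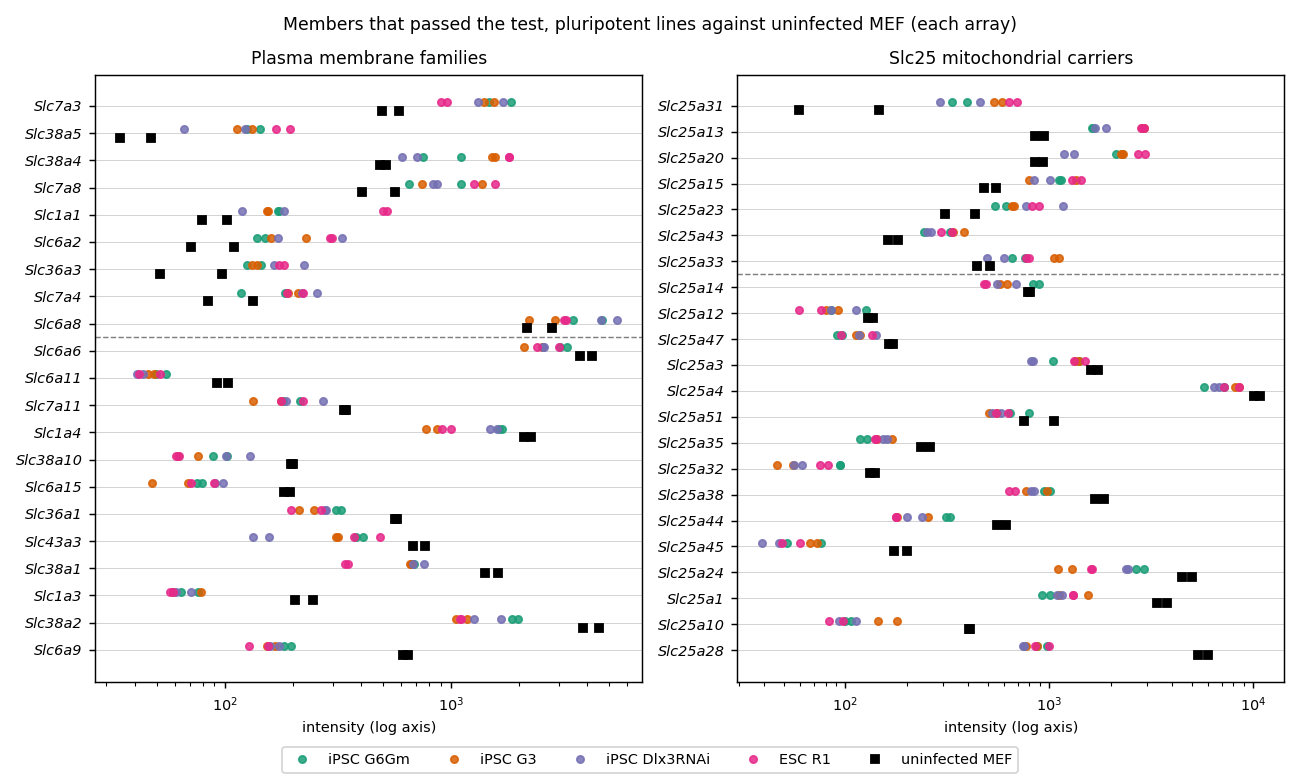
Linear intensity (log axis) of each carrier that passed between the pluripotent lines and uninfected MEF, with plasma membrane families and Slc25 in separate panels; circles are the 8 line arrays, coloured by line, and black squares the 2 MEF arrays. Genes above the dashed line rose and genes below it fell; Slc25a28 has its line arrays at 740 to 994 and its MEF arrays at 6009 and 5359.

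Genes of the same pathways, from lists made for this report, moved both ways. Of 23 measured genes of the amino acid response 7 rose and 10 fell (median 0.02), with Ddit4 at 2.08 and Atf5 at −2.30. Of 20 enzymes of amino acid metabolism 9 rose and 7 fell, led by the glycine decarboxylase Gldc (2.65), Shmt1 (2.10), glutamine synthetase Glul (2.05) and Aldh18a1 of proline synthesis (−1.83). Of 21 citrate cycle and partner enzymes 5 rose and 5 fell, and of 15 other mitochondrial or amino acid carriers 3 rose and 6 fell, with Sfxn3 at −1.24. All 5 measured pluripotency markers rose, with summed levels of 9993 to 17897 in the lines and 675 to 683 in MEF. Of 9 fibroblast markers 8 fell, with sums of 11646 to 45456 in the lines and 57834 to 62392 in MEF. Of 8 keratinocyte and epithelial markers 7 rose, with sums of 5450 to 12691 in the lines and 2168 to 2183 in MEF. The part of feeder cells in these values was not tested.

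Among the 4 lines, 13 of 41 plasma membrane carriers and 11 of 36 Slc25 carriers differed by the moderated F test (31.2% of the carriers against 32.2% of all genes). For the 3 iPSC lines against ESC R1, 2 of 41 plasma membrane genes rose and 4 fell, and 3 of 36 Slc25 genes rose and 2 fell, while 7.2% of all genes rose and 6.35% fell. Without either R1 array the plasma membrane count was 3. Slc38a1 was at 683 and 680 in G6Gm, 659 and 665 in G3, 681 and 759 in Dlx3RNAi and 339 and 352 in R1. All 6 iPSC arrays were above both R1 arrays (0.93 ± 0.11, adjusted p = 5.62e-07). Slc1a1, a glutamate and cysteine carrier, was highest in R1, with 174 and 172 in G6Gm, 154 and 155 in G3, 119 and 183 in Dlx3RNAi, and 499 and 523 in R1 (−1.51). Slc38a4 passed at −0.87, but the call ended in 7 of 8 fits that left out 1 array, with adjusted p up to 0.252 without R1 array 1, and held without G6Gm array 1 only.

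Some carriers separated the iPSC lines from each other. Slc25a25, a calcium-regulated ATP-Mg and phosphate carrier, read 447 and 449 in G6Gm, 196 and 205 in G3, 361 and 311 in Dlx3RNAi and 179 and 177 in R1. It was thus high in G6Gm and Dlx3RNAi and low in G3, near R1. Slc25a36, which carries pyrimidine nucleotides, had the inverse order, with 150 and 142 in G6Gm, 339 and 329 in G3, 209 and 182 in Dlx3RNAi and 353 and 394 in R1. Both passed between iPSC and R1 (0.71 and −0.72) and among the lines. Slc43a3 was lowest in Dlx3RNAi, at 157 and 133, with the other line arrays between 311 and 483. Slc25a38, a glycine carrier of heme synthesis, passed at 0.42, and its call ended without G6Gm array 2, G3 array 2, Dlx3RNAi array 1 or either R1 array (adjusted p up to 0.281, without R1 array 1).

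ESC B6 formed a set of its own, so its levels are given with no test. Slc7a3 averaged 15251 ± 855 (SD, n = 3), the 97.5th percentile of its set, and Slc3a2 14728 ± 200, Slc25a13 13324 ± 324 and Slc38a2 11524 ± 1007 were near it. By percentile within its own set, Slc43a1, a System L carrier, stood at 62.5 in B6 and 15.2 in R1, and Slc38a1 at 88.7 in B6 and 51.1 in R1. Slc1a1 was placed the other way, at 21.2 in B6 and 60.4 in R1. These percentiles are over the genes of differently filtered sets and set and line cannot be told apart.

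SKM without a further factor changed few carriers in fibroblasts. Of 31 plasma membrane genes 3 rose and 3 fell in SKM+EV against MEF1 EV (19.4%), and of 31 Slc25 genes 2 rose and 0 fell (6.45%), against 19.7% of all genes. In limma 6 Slc25 genes had an unadjusted p under 0.05, and a fit of this set of arrays alone called 6 Slc25 and 10 plasma membrane genes and 34.1% of all genes. No carrier that passed moved by 1 or more on the log2 scale. The Slc25 count was 1 without either MEF1 EV array or without SKM+EV array 1, and the plasma membrane count was 2 without SKM+EV array 2.

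Slc38a2 had 5411 and 5087 in SKM+EV, against 8569 and 8728 in MEF1 EV (−0.72 ± 0.18, adjusted p = 0.00404), and its call held without any single array. Slc38a6, another sodium-coupled carrier of the family, fell by 0.87 (295 and 257 in SKM+EV, 548 and 508 in MEF1 EV). Slc36a1 lay at 567 and 511 in SKM+EV and at 1137 and 802 in MEF1 EV (−0.79), but was no longer called without MEF1 EV array 1 (adjusted p = 0.348) or either SKM+EV array. Slc6a9, lower in pluripotent lines than in MEF, was higher here, with 297 and 332 in SKM+EV and 192 and 170 in MEF1 EV (0.70, adjusted p = 0.0411). Leaving out any 1 of the 4 arrays ended that call (adjusted p up to 0.204). The creatine transporter Slc6a8 had 4681 and 4601 in SKM+EV and 3663 and 3092 in MEF1 EV (0.46), a call that held without MEF1 EV array 1 only (adjusted p up to 0.247 otherwise).

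Slc25a33, a pyrimidine nucleotide carrier that growth factors induce, rose by 0.87, with 420 and 391 in SKM+EV and 197 and 218 in MEF1 EV. Slc25a13 had 2202 and 2055 in SKM+EV and 1313 and 1205 in MEF1 EV (0.74, adjusted p = 0.041), and each of the 4 fits without 1 array lost it (adjusted p up to 0.165). For neither gene did the groups overlap. Slc7a5 with 174 and 254 in SKM+EV and 141 and 85.6 in MEF1 EV (0.77), and Slc7a3 with 149 and 167 in SKM+EV and 87.8 and 74.7 in MEF1 EV (0.75), did not pass, but did so in the fit of this set alone (adjusted p = 0.00643 and 0.00174).

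Of 23 amino acid response genes 11 rose and 0 fell (median 0.49), led by Trib3 (1.49), Ddit3 (1.47), Ddit4 (1.38) and Cebpb (1.28). Of 14 enzymes of amino acid metabolism 8 rose and 0 fell (median 0.51), led by cystathionine gamma-lyase Cth (1.12) and the threonine pathway enzyme Gcat (0.95). Of 19 citrate cycle genes 3 rose and 2 fell, and of 18 other carriers 1 rose. The median of all genes was −0.02. In the same comparison 7 of 8 keratinocyte and epithelial markers rose, with summed levels of 92579 to 97399 in SKM+EV and 2529 to 2919 in MEF1 EV. All 3 adipocyte markers fell, with sums of 527 to 661 in SKM+EV and 3435 to 3621 in MEF1 EV. The part of these cell type markers in the changes of the carriers was not tested.

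Slc7a3 and Slc6a15 rose most in OCT4+SKM against SKM+EV, of the 62 carriers measured. Against SKM+EV, 4 plasma membrane genes rose and 2 fell (19.4%), and 3 Slc25 genes rose and 1 fell (12.9%), with 11% of all genes called. Slc7a3 stood at 629 and 486 in OCT4+SKM, against 149 and 167 in SKM+EV (1.62 ± 0.32, adjusted p = 0.000535). Slc7a2, another cationic carrier, did not pass, with 325 and 340 in OCT4+SKM and 543 and 428 in SKM+EV (−0.50). Slc6a15, a carrier of branched-chain amino acids and proline, rose by 1.32, with 319 and 346 in OCT4+SKM and 104 and 125 in SKM+EV. Both OCT4+SKM arrays were well above both SKM+EV arrays for the 2 genes. The plasma membrane count was 3 without SKM+EV array 1, and the Slc25 count was 2 without SKM+EV array 2 and 1 without OCT4+SKM array 2.

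Slc7a1, the general arginine and lysine carrier, had 6606 and 4093 in OCT4+SKM and 1483 and 3375 in SKM+EV (1.20, adjusted p = 0.0158). The groups did not overlap, but the 2 arrays of SKM+EV differed by more than the nearest arrays of the 2 groups, and the call ended without SKM+EV array 1 (0.62, adjusted p = 0.466) or without OCT4+SKM array 1 (adjusted p = 0.25). Slc43a3 (0.78) was likewise lost without SKM+EV array 1 (adjusted p = 0.473) or OCT4+SKM array 1 (adjusted p = 0.238). Slc6a8 fell to 2661 and 2668 in OCT4+SKM, against 4681 and 4601 in SKM+EV (−0.79, adjusted p = 0.000481). Slc25a13 had 3928 and 4602 in OCT4+SKM and 2202 and 2055 in SKM+EV (0.99, adjusted p = 0.01), and was lost without SKM+EV array 2 (adjusted p = 0.0741) or OCT4+SKM array 2 (adjusted p = 0.119). Slc25a33 fell by 0.80, with 203 and 238 in OCT4+SKM and 420 and 391 in SKM+EV. Slc25a32, the folate carrier, rose by 0.74.

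Against MEF1 EV, OCT4+SKM showed 7 rises and 5 falls among 31 plasma membrane genes (38.7%) and 7 rises and 0 falls among 31 Slc25 genes (22.6%), with 22.4% of all genes called. This comparison shares MEF1 EV with that of SKM+EV above. Of the amino acid response list 0 rose and 3 fell in OCT4+SKM against SKM+EV, with Ddit3 at −1.33 and Cebpb at −1.05, and of the metabolism list 1 rose, Cth at 2.32. Keratinocyte and epithelial sums were 45357 to 46109 in OCT4+SKM and 92579 to 97399 in SKM+EV, with 4 of 8 markers lower, and all 3 neuron markers rose, with sums of 20344 to 21157 in OCT4+SKM and 758 to 814 in SKM+EV. Their part in the result was not tested.

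The 8 OCT4 substitutes were each compared with the same SKM+EV arrays, so their values share that control. Over the 8 comparisons the plasma membrane genes gave 73 calls, 42 rises and 31 falls, and Slc25 gave 70, with 49 rises and 21 falls. These totals, and the counts per carrier below, take CEBPa, HNF4a and GRB2 apart, although their nearly equal profiles are not separate observations. Of the 62 carriers 54 passed in at least 1 comparison, 13 of them in both directions, and 8 in none. No such totals or counts were made over all genes, so they describe the comparisons and not the carriers. Without SKM+EV array 1 the totals were 36 and 46, so many of these calls rest on that array. MIXL1+SKM changed 2 of the 62 carriers and 2.1% of all genes, SOX7+SKM 11 carriers and 12.1%, PAX1+SKM 8 and 15.7%, and GATA6+SKM 19 and 22%. CEBPa+SKM changed 19 carriers and 34.6% of all genes, GRB2+SKM 23 and 40.3%, HNF4a+SKM 25 and 42.5%, and GATA4+SKM 36 and 53.8%. The 10 groups with SKM were compared, without MEF1 EV, by the F test, which 28 of 31 plasma membrane genes and 25 of 31 Slc25 genes passed, against 81.4% of all genes.

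**Figure D2:**
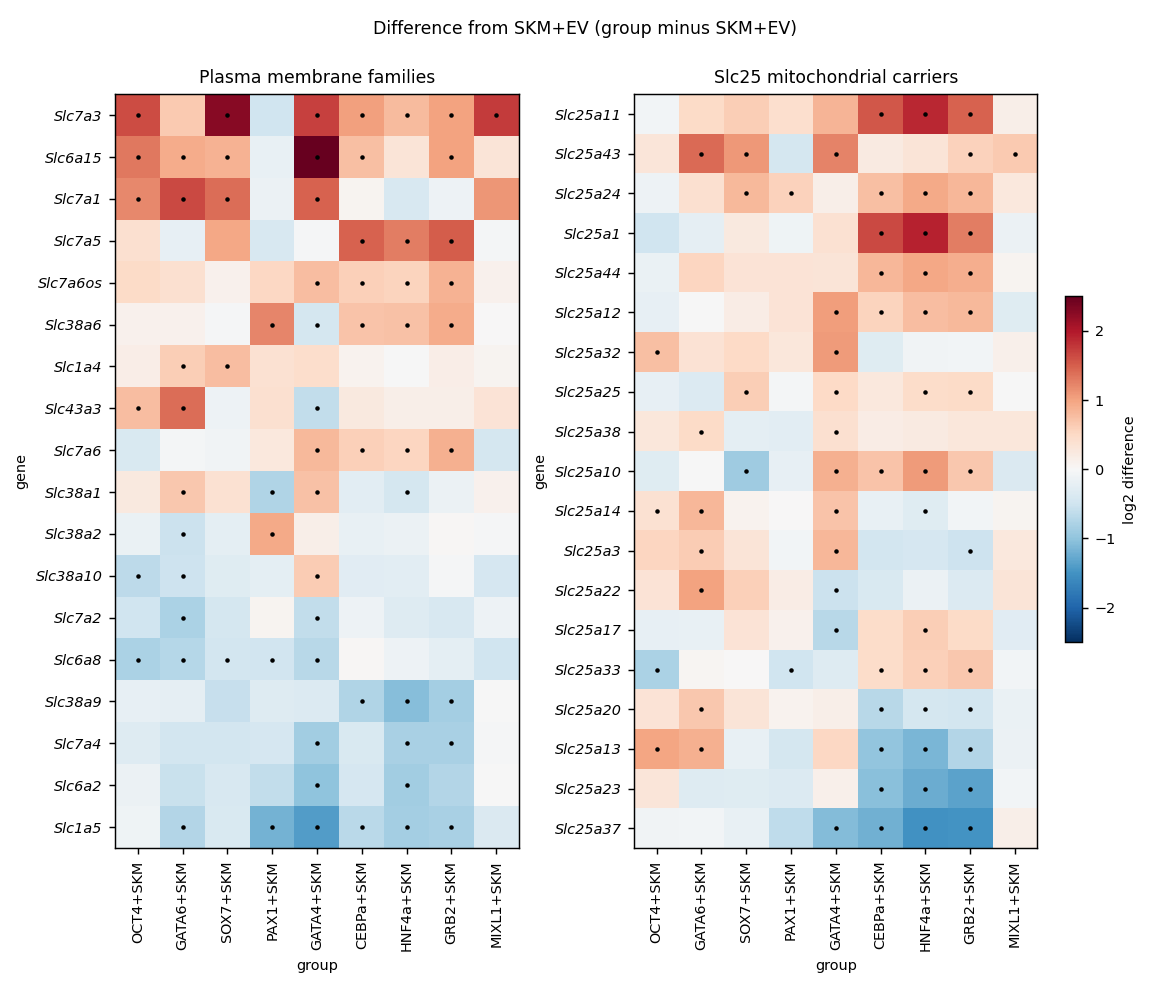
Log2 difference from SKM+EV (colour) of the carriers called in at least 2 of the 9 comparisons, with 1 column for each factor added to SKM; a black dot marks an adjusted p under 0.05. The columns of CEBPa, HNF4a and GRB2 look alike, and Slc7a3 carries a dot in 7 columns.

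Slc7a3 rose in 6 of the 8 comparisons, a count that takes CEBPa, HNF4a and GRB2, the groups of near-equal profile, apart. Its arrays read 920 and 854 in SOX7+SKM, 635 and 577 in MIXL1+SKM, 568, 613 and 595 in GATA4+SKM, and 149 and 167 in SKM+EV. The rises were 2.27 ± 0.32 with SOX7, 1.75 ± 0.32 with MIXL1 and 1.72 ± 0.29 with GATA4, and with OCT4, 1.62 as given above, all without overlap. Levels were lower with CEBPa (341 and 370, difference 1.03), GRB2 (359 and 343, 1.01) and HNF4a (266 and 333, 0.80), and these 3 calls ended without SKM+EV array 1 (adjusted p = 0.087, 0.0825 and 0.179). The call with CEBPa also ended without its array 2 (adjusted p = 0.0789), that with GRB2 without its array 1 (0.0689), and that with HNF4a without any of its 4 arrays (adjusted p up to 0.221). Slc7a3 did not pass with GATA6 (0.65) or with PAX1, where its arrays, at 86.8 and 119, were both below SKM+EV.

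Slc7a1 rose with GATA6 (1.65), GATA4 (1.48) and SOX7 (1.39). Its levels were 5820 and 8646 in GATA6+SKM, 6586, 5310 and 7205 in GATA4+SKM, 6905 and 5116 in SOX7+SKM, and 1483 and 3375 in SKM+EV. Each array of the 3 groups was above both of SKM+EV. Without SKM+EV array 1 the adjusted p was 0.0599 with GATA6 and 0.265 with SOX7, and without SOX7+SKM array 1 it was 0.0952.

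The System L light chain Slc7a5 passed with CEBPa, HNF4a and GRB2, the groups of near-equal profile, and with none of the other 5 substitutes, although SOX7+SKM passed in the fit of the set alone (0.97, adjusted p = 0.00185). It had 619 and 664 in CEBPa+SKM, 608 and 515 in HNF4a+SKM and 675 and 643 in GRB2+SKM, against 174 and 254 in SKM+EV. The rises were 1.47, 1.29 and 1.51, each with an SE of 0.39, and none of the groups overlapped SKM+EV. Without SKM+EV array 1 the adjusted p was 0.0685, 0.107 and 0.0534, and the HNF4a call was lost also without HNF4a+SKM array 1 (adjusted p = 0.0664). In the fit of the set alone, with every array, the SE for Slc7a5 was 0.20 with CEBPa and HNF4a (adjusted p = 1.43e-05 and 4.57e-05). The heavy chain Slc3a2 fell by 0.75 in GATA4+SKM, with 4449, 5275 and 5146 there and 8540 and 8153 in SKM+EV. With CEBPa (−0.37) and HNF4a (−0.41) Slc3a2 was also lower without overlap. These 2 differences passed in the fit of the set alone only (adjusted p = 0.0123 and 0.0062).

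Slc1a5, the main glutamine carrier of many dividing cells, fell in 6 of the 8 comparisons and rose in none. The 6 include CEBPa, HNF4a and GRB2, the groups of near-equal profile, and all share the SKM+EV arrays. It had 1708, 1755 and 1802 in GATA4+SKM and 2106 and 1984 in PAX1+SKM, against 4948 and 4445 in SKM+EV (−1.40 and −1.19). With HNF4a (−0.85), GRB2 (−0.81), GATA6 (−0.73) and CEBPa (−0.68) it stayed between 2544 and 2986. No array of these 6 groups reached the SKM+EV arrays. Without SKM+EV array 1 the calls with GRB2 (adjusted p = 0.0577), CEBPa (0.131) and GATA6 (0.147) were lost, as were those with CEBPa without either of its arrays (0.0855 and 0.0769) and with GATA6 without its array 2 (0.159).

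In PAX1+SKM, 2 carriers of the Slc38 family rose and 1 fell. Slc38a2 was at 10284 and 10078 in PAX1+SKM and 5411 and 5087 in SKM+EV (0.95 ± 0.18, adjusted p = 0.000321), and Slc38a6 at 708 and 664 in PAX1+SKM and 295 and 257 in SKM+EV (1.22). Both groups were clearly apart. Slc38a1 went down, with 783 and 619 in PAX1+SKM and 1204 and 1183 in SKM+EV (−0.75). Other substitutes moved these genes too: Slc38a6 also rose with CEBPa (0.72), HNF4a (0.74) and GRB2 (0.93) and fell with GATA4 (−0.45), and Slc38a1 also fell with HNF4a (−0.44) and rose with GATA4 (0.74) and GATA6 (0.68). The HNF4a call of Slc38a1 ended without SKM+EV array 1 (adjusted p = 0.0612) or HNF4a+SKM array 2 (0.0846). Slc36a1 rose by 0.79, but the call ended without any 1 of the 4 arrays (adjusted p up to 0.219). Of the amino acid response list 0 rose and 5 fell. Keratinocyte and epithelial markers had their lowest sums of the SKM groups here, 11225 to 12504 in PAX1+SKM against 92579 to 97399 in SKM+EV, and their part was not tested.

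In SOX7+SKM the amino acid response list showed 12 rises and 0 falls among 23 genes, with a median of 0.77. Slc7a11 had 368 and 341 in SOX7+SKM and 205 and 147 in SKM+EV (0.91, adjusted p = 0.0372), and Slc1a4 3473 and 3849 in SOX7+SKM and 2504 and 1814 in SKM+EV (0.77). The Slc7a11 call ended without any 1 of the 4 arrays (adjusted p up to 0.224), and that of Slc1a4 without SKM+EV array 2 (0.207) or either SOX7+SKM array (0.0657 and 0.111). Slc25a10 fell by 0.89, with 93.3 and 113 in SOX7+SKM and 219 and 216 in SKM+EV.

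GATA4+SKM moved the most carriers, 10 up and 11 down at the plasma membrane and 11 up and 4 down in Slc25. It also moved the most genes, 53.8% of all, and was the only substitute group with 3 arrays, which makes a call easier to reach. Slc6a15 reached 754, 840 and 814 in GATA4+SKM, against 104 and 125 in SKM+EV (2.52 ± 0.14, adjusted p = 7.45e-13), the largest rise of any carrier with a substitute. Slc7a8 fell by 1.57, to 529, 575 and 318 in GATA4+SKM, against 1555 and 1318 in SKM+EV. The lysosomal glutamine carrier Slc38a7 fell by 1.18. Slc6a17, which loads neutral amino acids into synaptic vesicles, fell by 1.15, a call lost without SKM+EV array 1 (adjusted p = 0.109) and at the threshold without GATA4+SKM array 1 (adjusted p = 0.05). In Slc25 the NAD carrier Slc25a51 rose by 1.40, Slc25a43 by 1.23, the folate carrier Slc25a32 by 1.07 and Slc25a12, the aspartate and glutamate carrier aralar, by 1.05. The arrays of both groups were apart for each of these genes. Keratinocyte and epithelial sums were 22318 to 25749 in GATA4+SKM and 92579 to 97399 in SKM+EV, with 7 of 8 markers lower. Fibroblast sums were 87237 to 92734 in GATA4+SKM and 133762 to 134903 in SKM+EV, with 7 of 9 lower, and the part of these markers was not tested.

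**Figure D3:**
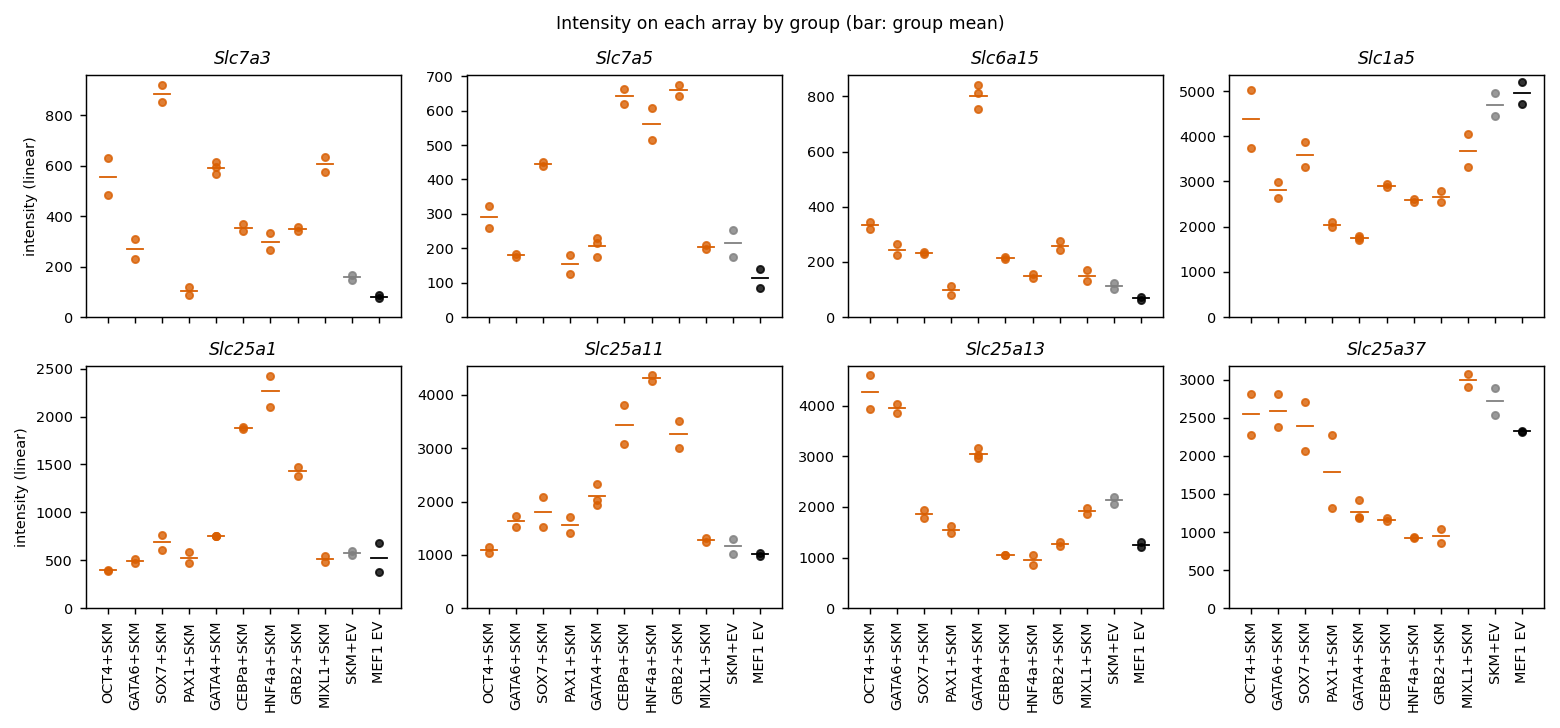
Linear intensity of 8 carriers on every array of the set that holds MEF1 EV and the groups with SKM; points are arrays and bars are group means. Slc7a3 is highest in SOX7+SKM at 854 to 920, and Slc25a1 and Slc25a11 are highest in HNF4a+SKM at 2097 to 2428 and 4253 to 4376.

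CEBPa, HNF4a and GRB2 shared their mitochondrial pattern. Slc25a1, the citrate carrier, read 1896 and 1867 in CEBPa+SKM, 2097 and 2428 in HNF4a+SKM and 1381 and 1478 in GRB2+SKM, against 594 and 554 in SKM+EV (1.66, 1.92 and 1.27). Slc25a11, which exchanges oxoglutarate for malate, had 3073 and 3800 in CEBPa+SKM, 4376 and 4253 in HNF4a+SKM and 3011 and 3512 in GRB2+SKM, against 1020 and 1298 in SKM+EV (1.54, 1.88 and 1.47, each with an SE of 0.49). All 6 arrays of the 3 groups were above both SKM+EV arrays for the 2 genes. In the fit over all arrays the Slc25a11 calls with CEBPa and GRB2 were lost without SKM+EV array 1. The CEBPa call was also lost without CEBPa+SKM array 2, and the GRB2 call without either GRB2+SKM array. That fit takes in the spread of Slc25a11 in OKM+EV, at 4667, 4438 and 489. In the fit of the SKM set alone, with every array, the SE was 0.16 with CEBPa and HNF4a (adjusted p = 6.2e-07 and 4.5e-08).

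Mitoferrin 1 and citrin went down in the same 3 groups. Slc25a37 lay at 1183 and 1141 in CEBPa+SKM, 935 and 922 in HNF4a+SKM and 852 and 1034 in GRB2+SKM, against 2895 and 2533 in SKM+EV (−1.20, −1.51 and −1.50). It was also low in GATA4+SKM, at 1189, 1195 and 1418 (−1.08). Slc25a13 had 1059 and 1054 in CEBPa+SKM, 1058 and 848 in HNF4a+SKM and 1229 and 1299 in GRB2+SKM, against 2202 and 2055 in SKM+EV (−0.99, −1.14 and −0.74), and the GRB2 call ended without any 1 of the 4 arrays (adjusted p up to 0.122). GATA6+SKM was the opposite, with Slc25a13 at 4030 and 3860 (0.88), a call lost without any 1 of its 4 arrays (adjusted p up to 0.0699). Since the 3 profiles are nearly equal, these are not 3 separate observations. Keratinocyte and epithelial sums were 27925 to 31354 in CEBPa+SKM, 17957 to 18320 in HNF4a+SKM and 19591 to 19823 in GRB2+SKM, against 92579 to 97399 in SKM+EV, and 8 of 8 markers fell in each group. Their part was not tested.

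Keratinocyte and epithelial sums were 100563 to 114302 in GATA6+SKM and 92326 to 97680 in MIXL1+SKM, against 92579 to 97399 in SKM+EV. Fibroblast markers were lower in GATA6+SKM, 7 of 9, with sums of 62369 to 63253 in that group and 133762 to 134903 in SKM+EV. The 2 measured macrophage markers, of which 1 rose, summed to 665 to 673 in GATA6+SKM and 320 to 325 in SKM+EV, and the part of these markers was not tested. In GATA6+SKM, Slc43a3 reached 8078 and 9512 in that group, against 2603 and 4261 in SKM+EV (1.39), and Slc25a43 783 and 887, against 258 and 334 in SKM+EV (1.41 ± 0.17, adjusted p = 1.38e-07). The glutamate carrier Slc25a22 rose by 1.00, and lost its call without SKM+EV array 1 (adjusted p = 0.0968) or GATA6+SKM array 2 (0.0859). Slc1a6 passed at 1.47 on 1 array alone, with 177 and 2005 in GATA6+SKM and 207 and 199 in SKM+EV. In MIXL1+SKM only Slc7a3 and Slc25a43 passed, the second at 0.64 with 509 and 447 in MIXL1+SKM and 258 and 334 in SKM+EV.

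OKM and SOX2 substitutes were measured in 2 other sets, each with an array that stands apart. In OKM+EV against MEF2 EV, 8 plasma membrane genes rose and 12 fell of 39, and 9 Slc25 genes rose and 6 fell of 37, against 40.8% of all genes. A fit of that set alone, where array 3 of OKM+EV widens the spread, called 663 of 11947 genes (5.55%) and only 3 rises and 1 fall at the plasma membrane and 0 rises and 2 falls in Slc25. With array 3 left out of the fit of the set alone, 20 and 15 carriers and 46.6% of all genes passed. Without MEF2 EV array 2 the plasma membrane count of the fit over all arrays was 13. The verbs rose and fell are used below for carriers that passed in both fits.

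Slc38a5, a System N carrier of glutamine and serine, had 1802, 557 and 2217 in OKM+EV and 111 and 81.2 in MEF2 EV (3.40 ± 0.38, adjusted p = 6.17e-07). It was the largest rise of any carrier in the comparisons with fibroblasts, and without OKM+EV array 3 the value was 3.03. Slc43a3 rose by 1.81, with 2903, 2723 and 5450 in OKM+EV and 986 and 967 in MEF2 EV. The betaine carrier Slc6a12 rose by 1.76, with 397, 417 and 360 in OKM+EV and 108 and 78.8 in MEF2 EV. The taurine carrier Slc6a6 fell by 1.34, with 3600, 2990 and 4935 in OKM+EV and 9090 and 10017 in MEF2 EV. In each of the 4 genes the groups did not overlap.

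Slc25a45, a carrier of the mitochondrial membrane, showed the largest fall of all the carriers in any comparison made. It read 206, 278 and 192 in OKM+EV, against 3036 and 3108 in MEF2 EV (−3.61 ± 0.16, adjusted p = 1.14e-12). Slc25a10 fell by 1.76, with 138, 149 and 190 in OKM+EV and 492 and 759 in MEF2 EV. Carriers that passed over all arrays but not in the set alone included Slc7a3, where array 3 was far above the others (322, 405 and 1329 in OKM+EV, 184 and 174 in MEF2 EV; 1.50, adjusted p = 0.208 in the set alone). Slc38a2 had 1851, 3060 and 2813 in OKM+EV and 5377 and 5797 in MEF2 EV (−1.14, adjusted p = 0.08 in the set alone), and Slc25a33 1202, 1173 and 895 in OKM+EV and 412 and 315 in MEF2 EV (1.50, adjusted p = 0.0522 in the set alone).

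Markers of other cell types differed between the 2 groups. Summed macrophage markers were 684 to 2940 in OKM+EV and 31766 to 39723 in MEF2 EV, and adipocyte markers 11382 to 36264 in OKM+EV and 54603 to 67180 in MEF2 EV, with 4 of 4 lower for each list over all arrays. In the set alone 3 of the 4 macrophage markers and 1 of the 4 adipocyte markers passed. Keratinocyte and epithelial sums were 44927 to 82607 in OKM+EV and 2157 to 2533 in MEF2 EV, with 7 of 8 markers higher. Neuron sums were 10547 to 22630 in OKM+EV and 889 to 1073 in MEF2 EV, with 3 of 4 markers higher over all arrays and 2 also in the set alone. Their part in the changes of the carriers was not tested. Of 20 amino acid response genes 4 were higher and 6 lower over all arrays, and 0 passed in limma in the set alone, with 6 at an unadjusted p under 0.05.

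Few carriers passed between the SOX2 substitutes and SOX2, each given with OKM. In OKM+SOX1 against OKM+SOX2, 0 of 38 plasma membrane genes passed in limma, over all arrays or in the set alone, with 3 at an unadjusted p under 0.05 over all arrays. Of all genes 5.72% passed over all arrays and 0.215% in the set alone. In OKM+SOX3 the count was also 0, with 2 at an unadjusted p under 0.05, and of all genes 6.31% passed over all arrays and 0.241% in the set alone. Over the 3 comparisons 2 plasma membrane and 8 Slc25 calls were made, against 1 and 1 without OKM+SOX2 array 1 and 7 and 7 without OKM+SOX2 array 2, and the Slc25 count was 5 without either OKM+GMNN array. With GMNN, where 7.23% of all genes passed, or 2.03% in the set alone, 2 carriers passed in both fits. Slc7a3 had 353 and 371 in OKM+GMNN and 1360 and 948 in OKM+SOX2 (−1.57 ± 0.32, adjusted p = 0.00156), a call lost without OKM+SOX2 array 1 (adjusted p = 0.0585). Slc25a45 had 501 and 534 in OKM+GMNN and 170 and 207 in OKM+SOX2 (1.32, adjusted p = 0.000106). Slc25a39, a carrier of glutathione, was called in each of the 3 comparisons on the strength of 1 OKM+SOX2 array, with 1139 and 229 there, and did not pass in the set alone. Keratinocyte and epithelial sums were 113834 to 120012 in OKM+GMNN and 41885 to 47328 in OKM+SOX2, with 6 of 9 markers higher and 1 lower. Macrophage sums were 3301 to 3470 in OKM+GMNN and 198 to 734 in OKM+SOX2, and the part of these markers was not tested.

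**Figure D4:**
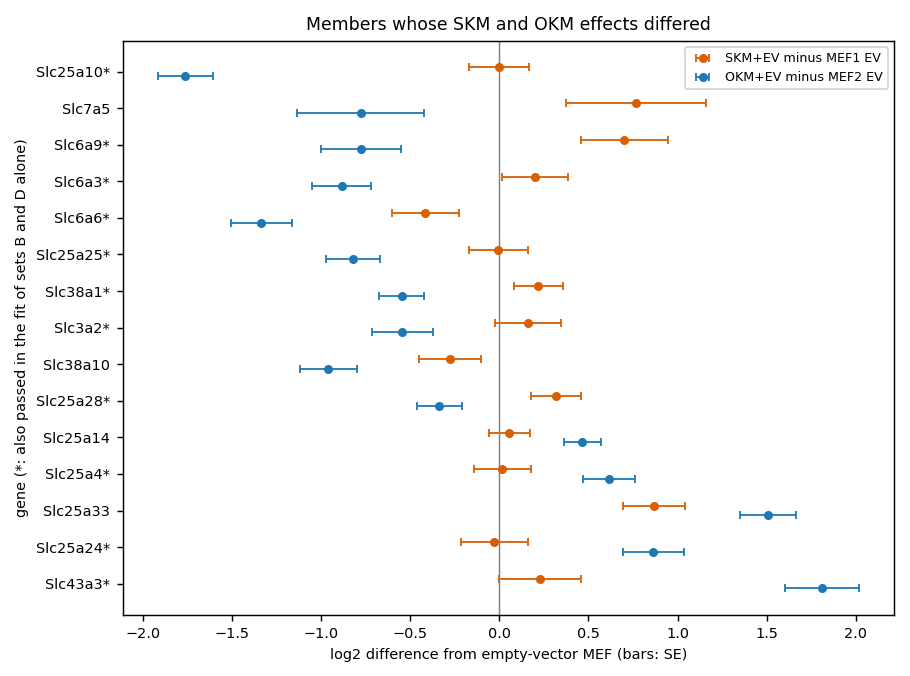
Log2 difference of SKM+EV from MEF1 EV (orange) and of OKM+EV from MEF2 EV (blue) for the 15 carriers whose difference differed between the 2 comparisons; bars are SE and an asterisk marks genes that passed also with the sets fitted alone. Slc43a3 rose by 1.81 with OKM, and Slc25a10 fell by 1.76 with OKM.

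The response to SKM and that to OKM were compared by the test of their difference, each against its own fibroblast control. Of 26 plasma membrane genes 7 had a higher and 1 a lower response to SKM than to OKM, and of 30 Slc25 genes 3 were higher and 4 lower, against 26% of all genes. With the sets fitted alone 5 plasma membrane genes were higher and 1 lower, and 3 Slc25 genes were higher and 2 lower, against 20.7% of all genes. Slc25a10 differed by 1.76 (adjusted p = 6.95e-07) and Slc6a9 by 1.48 (adjusted p = 0.00117), both higher with SKM. Slc43a3 was lower with SKM by 1.58 (adjusted p = 0.000232). The amino acid response list had 10 of 19 genes higher and 1 lower with SKM (median 0.85), or 7 and 1 with the sets fitted alone. The Slc25 count was 2 without SKM+EV array 1, 3 without SKM+EV array 2 or MEF1 EV array 1, 4 without OKM+EV array 1 and 11 without OKM+EV array 3. The plasma membrane count was 5 without SKM+EV array 2. Factor, batch of fibroblasts and set of arrays cannot be told apart in this comparison. The 4 macrophage markers were abundant in MEF2 EV as given above, and the 2 of them measured in the other set summed to 364 to 381 in MEF1 EV. These sums cover different numbers of markers in sets taken as normalized apart, so their sizes cannot be compared.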

How the data were processed

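The deposited table holds linear intensity values of 49 one-colour arrays, 19426 probes in all, in 5 sets with different probes left in and different levels. What the authors used for background correction and normalization, and with which software, is not given in the sources used here. Probes were named through the platform annotation and current RefSeq symbols. The carriers and gene lists were chosen with earlier results of these data known.

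Values were tested as log2(intensity + 32) with limma 3.58.1 in R 4.3.3, in one fit with a trend over all 49 arrays, with contrasts within sets only, two-sided, and Benjamini-Hochberg adjustment at 0.05 over all genes present on every compared array. The step was tested on simulated data, where it made many false calls between OKM+EV and MEF2 EV and some among the SOX2 substitutes, since the spread of those sets is wider; a fit of each such set alone is therefore printed beside it, and the test of SKM against OKM carries the same limit. In sets with a narrower spread the pooled fit can also miss or lose calls, and there the fit of the set alone is given for some carriers only. The number of arrays limits the precision. Named carriers are the 6 largest rises and falls of the plasma membrane families and 5 of Slc25 in the main comparisons and 3 in the others, passed, without overlap and with the brighter group above its median, plus a standing list of transport genes. At most 4 genes are named from each list. Outside that rule, and without repeats that leave out arrays, the following were named after their values were seen: Slc38a6 and Slc25a33 with SKM, Slc6a15, Slc25a33, Slc25a32 and Slc7a2 with OCT4, Slc38a6 with CEBPa, HNF4a, GRB2 and GATA4, Slc38a7, Slc25a32 and Slc25a12 with GATA4, Slc1a6 with GATA6, Slc25a43 with MIXL1, Slc6a12 with OKM, and Slc25a25 and Slc43a3 among the lines. Deviations of same-numbered arrays correlated above 0.1 in 18 of 55 pairs of groups in the set of the SKM groups (−0.50 to 0.51), 3 of 10 in that of the other lines and MEF, 0 of 6 among the SOX2 substitutes, and for the 1 pair with OKM+EV (0.17). No set with 3 or more pairs had every pair above 0.1, so the numbers were not taken to pair the arrays and the main test has no block. Alternatives were pseudocounts of 16 and 64, each set alone, quantile normalization within a set, the brightest probe in the compared sets, genes above the set's median, the replicate number as a block, and single arrays left out.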

Additional observations from a re-analysis of the deposited data

Results flagged for a closer look

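In all, 15 carriers responded differently to SKM+EV against MEF1 EV than to OKM+EV against MEF2 EV by the test of that difference (limma, adjusted p under 0.05), 26.8% of the 56 tested, against 26% of all genes. At the plasma membrane the log2 difference was 1.55 for Slc7a5, 1.48 for Slc6a9, 1.08 for the dopamine transporter Slc6a3, 0.92 for Slc6a6, 0.76 for Slc38a1, 0.70 for Slc3a2, 0.68 for Slc38a10 and −1.58 for Slc43a3. Among mitochondrial carriers it was 1.76 for Slc25a10, 0.82 for Slc25a25, 0.65 for Slc25a28, −0.41 for Slc25a14, −0.60 for Slc25a4, −0.64 for Slc25a33 and −0.89 for Slc25a24. Slc6a9 stood at 0.70 with SKM and −0.78 with OKM, and Slc7a5 at 0.77 with SKM and −0.78 with OKM. Slc7a5 read 62.6, 84.6 and 439 in OKM+EV and 208 and 336 in MEF2 EV, so array 3 lay above both controls, and without it the value with OKM was −1.50 and the difference 2.27.

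With the sets fitted alone, Slc7a5 (adjusted p = 0.0955), Slc38a10 (0.0908), Slc25a14 (0.106) and Slc25a33 (0.0665) did not pass. With the sets fitted alone and OKM+EV array 3 left out, a setting chosen after seeing the data, all 4 passed, at adjusted p = 1.11e-05, 0.00804, 0.0438 and 0.00649 in that order. Among the genes repeated without single arrays, Slc7a5 lost its call in 5 of 9 repeats, with adjusted p up to 0.154 without MEF2 EV array 2, and Slc3a2 in 6, up to 0.168 without MEF2 EV array 1. Slc25a4 and Slc25a33 lost theirs in 7 each, up to 0.146 without SKM+EV array 2 and 0.231 without MEF2 EV array 2. Slc25a24 was lost without SKM+EV array 1 (0.0616), Slc25a25 without MEF2 EV array 2 (0.105) or SKM+EV array 1 (0.0841), and Slc25a28 without MEF1 EV array 1 (0.0639) or SKM+EV array 2 (0.0963). Factor and set cannot be told apart.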

How the results depend on the processing

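Counts of carriers called are given as plasma membrane families, then Slc25. With each set fitted alone they were 15 and 11 for iPSC against R1, 10 and 6 for SKM+EV, 4 and 2 for OKM+EV, 1 and 1 for the SOX2 substitutes, and 20 and 18 among the lines. In these fits 34.1% of all genes passed for SKM+EV, 5.55% for OKM+EV and 0.215% to 2.03% for the SOX2 substitutes. Among the lines 6884 of 11991 genes passed, against 3867 in the fit over all arrays. For iPSC against R1 and most settings below no share over all genes is given, so those counts describe the setting and not the carriers. Among genes above the set's median, fewer were tested and 9 and 14 passed for the lines against MEF, 3 and 3 for iPSC against R1, 3 and 1 for SKM+EV, 3 and 2 for OCT4+SKM, 27 and 42 for the OCT4 substitutes, 1 and 3 for the SOX2 substitutes and 12 and 15 among the SKM groups, with 10, 5 and 6 plasma membrane genes for OKM+EV, SKM against OKM, and among the lines. With the replicate block the counts were 13 and 9 for iPSC against R1, 10 and 4 for SKM+EV, 8 and 13 for the SOX2 substitutes, and 11 in Slc25 for SKM against OKM; the numbers do not pair the arrays. With sets fitted alone and no OKM+EV array 3, chosen after seeing the data, Slc25 had 12 for SKM against OKM, with 43.7% of all genes called. Leaving out 1 array at a time gave 15 to 22 and 18 to 22 for the lines, 3 to 6 and 4 to 6 for iPSC against R1, 2 to 5 and 1 to 2 for SKM+EV, 3 to 6 and 1 to 3 for OCT4+SKM, 36 to 74 and 46 to 70 for the OCT4 substitutes, 13 to 23 and 11 to 17 for OKM+EV, 1 to 7 and 1 to 7 for the SOX2 substitutes, 5 to 9 and 2 to 11 for SKM against OKM, 10 to 12 and 9 to 10 among the lines, and 27 to 29 and 24 to 26 among the SKM groups. Except where a lone array or the tested genes differ by construction, the cause was not tested. Of 257 named results, a pseudocount of 16 kept 251 on their side of the threshold, a pseudocount of 64 256, quantile normalization 256, the brightest probe 257, the block 251 and sets alone 229; leaving out arrays kept 1020 of 1277, and none changed direction. Groups of 2 arrays limit what could be detected.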
